A study of Glycine max with 4 samples.

Results

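Chromosome 13 of the soybean (Glycine max) carried 569 accessible regions in embryos at early maturation. They are all the peaks that the deposited list places on this chromosome, out of 10719 on the 20 chromosomes and 11436 in the whole list, or 4.98% of the list (95% exact binomial interval 4.58 to 5.39). The peaks were assigned by the chromosome named in the list. The chromosome itself was chosen by the positions and widths of its peaks, which stood apart from those of other chromosomes. Values of position and width are therefore descriptions, and no test is given for them. The other 19 chromosomes, with 10150 peaks, serve for comparison, but they are parts of the same list and not biological replicates.

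The nuclei came from cultivar Williams 82, the source of the soybean reference genome. Plants were grown in a greenhouse, and embryos were dissected from seeds 6 to 7 mm long. A sample of 50000 nuclei per reaction was exposed to the Tn5 transposase (ATAC-seq), which cuts and tags DNA mostly where nucleosomes leave it bare. The 2 biological replicates were each read in single-end and paired-end mode, and the list rests on the 2 paired-end samples. All groups share genotype, stage and tissue, with no treatment.

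At early maturation the embryo turns from cell division to the storage of protein and oil, and genes for storage products depend on enhancers and promoters that are open to transcription factors. Along a typical soybean chromosome, genes lie mainly toward the 2 ends, and the middle around the centromere is rich in repeats and packed as heterochromatin. Chromosome 13 is known for carrying the nucleolus organizer, the array of ribosomal RNA genes. No peak could be assigned to that array or to any gene, since neither labels nor list name the genome build used. For the same reason no sequence is shown. The list has no heights, scores or read counts, so the depth behind each peak is unknown, no value has a replicate error, and the tissue could not be checked against markers.

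Taken as a whole, chromosome 13 was not among the extremes. Its peaks covered 0.653% of a span of 45.8 Mb, measured from position 1 to the end of the last peak. The density was 12.4 peaks per Mb (95% exact Poisson interval 11.4 to 13.5), the fourth highest of 20. The other chromosomes averaged 11.3 ± 1.19 peaks per Mb (SD, n = 19 chromosomes) and ran from 9.57 on chromosome 20 to 13.8 on chromosome 11. The intervals cover counting error only and treat peaks as independent, although some lay in clusters. The chromosome held 5.31% of chromosomal peaks on 4.83% of the summed chromosome spans.

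Its dense and sparse stretches came in an uneven order. In the first 25% of the span it had 68 peaks, or 5.94 per Mb (interval 4.62 to 7.54). The second 25% had 143 peaks, or 12.5 per Mb (interval 10.5 to 14.7). The third had 130, or 11.4 per Mb (interval 9.49 to 13.5), and the last had 228, or 19.9 per Mb (interval 17.4 to 22.7). The first 25% was thus the emptiest part of the chromosome, and the last 25% held 3.35 times as many peaks. On 19 of 20 chromosomes the emptiest of the 4 parts was the second or the third, and chromosome 13 was the exception.

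Against the other chromosomes, its start was the sparsest of 20 and its end the second densest. The first 25% of the others held 15.2 ± 4.002 peaks per Mb (SD, n = 19 chromosomes), with the lowest value, 7.12 (interval 5.69 to 8.80), on chromosome 20. The start to end ratio of density was 0.298 on chromosome 13, and the next lowest were 0.379 on chromosome 20, 0.407 on chromosome 19 and 0.454 on chromosome 3, so a sparse start was shared with these in part. Its inner 2 parts were each the second densest of 20. Behind chromosome 17 with 13.8 per Mb came its 12.5 in the second part, and behind chromosome 5 with 12.1 came its 11.4 in the third. The middle 50% of the span, called the inner part here, held 11.9 peaks per Mb, the highest of 20. The others had 7.17 ± 1.42 there, at most 9.52 on chromosome 17. The outer parts, the first and last 25% together, held 12.9 per Mb, the second lowest of 20.

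**Figure D1:**
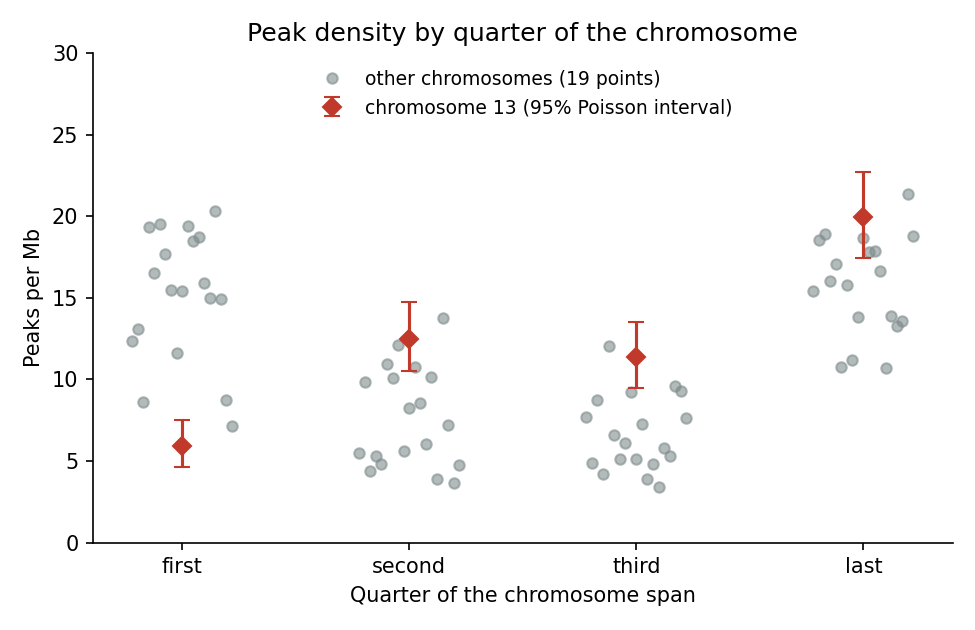
Peak density (peaks per Mb) in each 25% of the chromosome span, with chromosome 13 as diamonds (bars: 95% exact Poisson intervals, counting error only) and the other 19 chromosomes as grey points. Chromosome 13 is the lowest of 20 in the first part at 5.94 per Mb and the second highest in the other parts, with 12.5, 11.4 and 19.9. The last value is 17.7 without the peaks of dense clusters, and that rank is then lost.

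Cut into 20 equal bins, the chromosome lay below the median of the others in all 5 bins of the first 25% and above it in 9 of the 10 bins of the inner part. In the last 25% it was above that median in 2 of 5 bins. In 6 of 20 bins its density was outside the whole range of the others. Those were the first 2 bins, where it had 6.12 and 4.37 peaks per Mb against medians of 18.5 and 19.7, and 4 further along. The bin from 45 to 50% of the span held 53 peaks, 23.2 per Mb, where the others had a median of 4.76 and at most 10.9. The bins from 50 to 55% and from 55 to 60% held 10.1 and 11.8 per Mb against medians of 4.55 and 4.94. The bin from 80 to 85% held 27.1 per Mb against a median of 13.02. Of its 62 peaks, 25 belonged to the dense cluster described below. Without those it would fall inside the range of the others, which reached 22.8 per Mb. Across the inner part its bins ran from 6.12 to 23.2 peaks per Mb, with no trough in the middle of the span, where the median of the others was lowest.

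**Figure D2:**
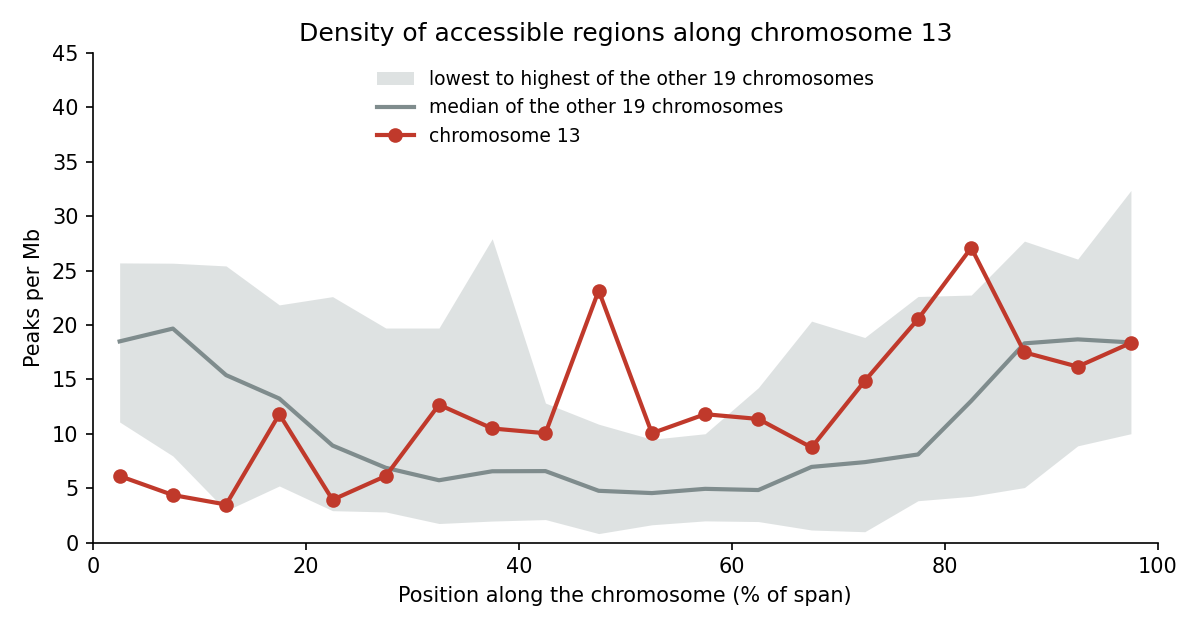
Peaks per Mb in 20 equal bins along the span (x axis, % of the span), for chromosome 13 (points and line) and the other 19 chromosomes (line: median, shaded: lowest to highest). Chromosome 13 is below the shaded range in the first 2 bins and above it between 45 and 60% and between 80 and 85% of the span. In the bin from 80 to 85%, 25 of 62 peaks belong to the dense cluster, and without them that bin would fall inside the shaded range.

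The sparse start was neither even nor uniformly empty. The first peak began at 247830, farther in than the first peak of any other chromosome (at most 199603, on chromosome 2). From the start to 7 Mb there were 32 peaks, 4.57 per Mb, with 1 to 9 in each window of 1 Mb. The window from 4 to 5 Mb held 1 peak and the window from 5 to 6 Mb held 3. Between 7 and 9 Mb the number rose to 27 peaks, 13.5 per Mb, which is 39.7% of all peaks in the first 25% of the span. The window from 9 to 10 Mb was empty, and from 9 to 14 Mb there were 25 peaks, 5 per Mb. These limits were drawn after the values had been seen.

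The peaks between 7 and 9 Mb lay mostly in one place. A group of 22 ran from 7879291 to 8099145, over 219.9 kb, with 519.5 kb free of peaks before it and 331.3 kb after it. It held a chain of 6 peaks from 8007466 to 8029095 and a chain of 4 from 7945254 to 7957012, where a chain joins peaks over gaps of at most 10 kb. Beyond the group a pair stood alone from 8430427 to 8440798, with 331.3 kb before it and 327 kb after it. The first of the pair was the widest peak of the chromosome at 7917 bp, ending at 8438343, and the second had 1983 bp. The pair covered 95.4% of its 10.4 kb. Of the 30 peaks of at least 1 kb on the chromosome, 6 lay between 7 and 9 Mb.

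Long stretches with no peak were gathered at the start. There were 9 over 0.5 Mb on chromosome 13, and 8 of them ended before 14 Mb. The longest ran from 8854983 to 10138103, a length of 1.28 Mb, and ranked 16 among all such stretches on the 20 chromosomes. The next 4 were 0.943 Mb from 5477569, 0.861 Mb from 4158959, 0.83 Mb from 3074057 and 0.652 Mb from 6706470. In the rest of the chromosome the longest was 0.534 Mb, from 30325785 to 30859375. The other chromosomes had a median of 14 stretches over 0.5 Mb and between 6 and 20. How well short reads map to these stretches was not tested.

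Moving a window of 10 Mb along the chromosome, the fewest peaks fell between 3.1 and 13.1 Mb, 54 in all, with a centre at 17.7% of the span. The sparsest such window of every other chromosome was centred between 25.4 and 66.6% of the span. Its 54 peaks were the third highest minimum of 20, and the others had 39.4 ± 9.52 (SD, n = 19 chromosomes). With a window of 5 Mb that rank was lost: the minimum was 14 peaks, between 2.7 and 7.7 Mb, rank 10 of 20 from the highest. The rest of the chromosome was 2.67 times as dense as this window, against 3.55 ± 0.839 on the others. Measured from its own sparsest stretch rather than from the middle of the span, chromosome 13 thus had a contrast inside the range of the others, which ran from 2.23 to 5.42.

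From 14 Mb to the end, 25 of 32 windows of 1 Mb held at least 10 peaks, against 2 of the 14 windows before. This stretch held 485 peaks, 85.2% of the total, on 69.4% of the span. A dense block lay from 20 to 23 Mb, with 24, 18 and 21 peaks in its 3 windows. From 23 to 34 Mb the density was 11.3 per Mb, with 4 to 20 peaks a window. From 34 Mb on it was 19.9 per Mb, and 1 of the last 12 windows held fewer than 10 peaks, the one from 41 to 42 Mb with 6. After the window from 38 to 39 Mb with 44 peaks, the fullest were those from 34 to 35 and from 44 to 45 Mb, with 25 each. The 44 were the second highest count of any chromosome's fullest window, behind 49 on chromosome 18. The last peak ended at 45761139.

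The last 50% of the span held 358 peaks, 62.9% of the chromosome's total (95% exact binomial interval 58.8 to 66.9). That share was the fourth highest of 20, where the others ran from 35.1% on chromosome 15 to 71.3% on chromosome 19. The weight of peaks toward the end was thus within the range of the others.

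The dense cluster centred at 38.83 Mb, at 84.8% of the span, was the largest chain of the chromosome. Its 25 peaks lay between 38796768 and 38859321 and covered 32.8 of 62.6 kb, or 52.4%. The next longest chain of the chromosome had 6 peaks. It was bounded on both sides, with 74.98 kb free of peaks before it and 102.4 kb after it. The peaks on either side were narrow, with 280 bp before and 75 bp after. The cluster took up 0.137% of the span and held 4.39% of the chromosome's peaks and 11% of its covered bases.

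Peaks of the cluster were wide. Their median was 939 bp (quartiles 691 and 1575, range 346 to 4518), against 431 bp in the other 544 peaks of the chromosome, whose upper quartile was 558 bp. At least 1 kb was the width of 10 of 25 (40%) in the cluster and of 20 of 544 (3.68%) elsewhere. The widest, 4518 bp, ran from 38798431 to 38802948 near the start. It was followed by 3981 bp from 38814361, 2704 bp from 38837149 and 2406 bp from 38819140. These 4 peaks made up 41.5% of the covered bases. None of the 25 had the modal width, the single most frequent width of the list, or a lower one, whereas 91 of 544 and 86 of 544 did elsewhere on the chromosome.

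Gaps inside the cluster were short, with a median of 871.5 bp, and 13 of 24 were under 1 kb. The shortest was 311 bp and the longest 4191 bp, and 4 exceeded 2 kb. The 12 peaks before the centre covered 18463 bp and the 13 after it 14329 bp. The other 19 peaks of the window from 38 to 39 Mb had a median width of 379 bp and none over 672 bp, so the wide peaks of that window all belonged to the cluster.

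**Figure D3:**
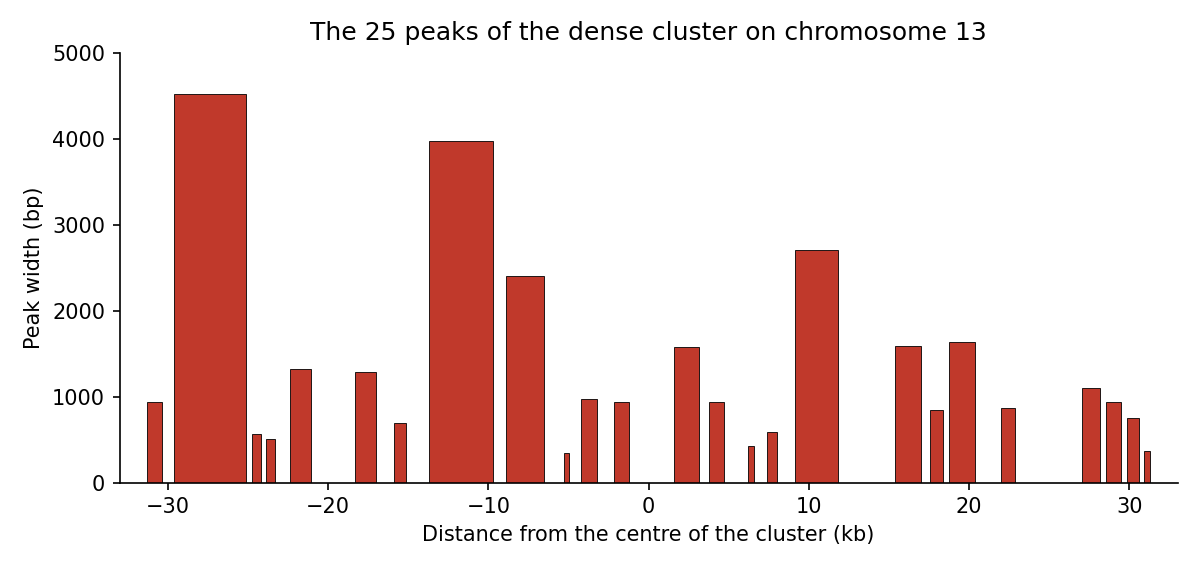
The 25 peaks of the dense cluster, drawn to scale by distance from its centre (x axis, kb), with height giving peak width (bp). The widest peak, 4518 bp, lies near the left edge, and wide peaks recur across the 62.6 kb.

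Of the 12 chains with at least 8 peaks on the 20 chromosomes, this one was the fourth in number, the fourth in length, the third in covered bases, the fourth in covered share and the third in median width. Those ahead of it in number were on chromosome 10, with 42 and 27 peaks, and on chromosome 18, with 40. In peaks per 10 kb it was the fourth, with 3.997, where the 12 ran from 2.53 to 5.25. Its length was almost that of the smaller chromosome 10 chain, 62.6 kb in both, and it covered more of it, 52.4% against 46.5%.

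Away from the cluster, peaks mostly stood apart. On chromosome 13, 349 peaks (61.3%) had no neighbour within 10 kb, the second highest share of 20. There were 48 chains of 2, 24 of 3, 4 of 4, 1 of 5 and 1 of 6. The chain of 5 ran from 22440220 to 22460742, inside the dense block from 20 to 23 Mb, and covered 10.9% of its length. Neighbouring midpoints were within 5 kb in 93 of 568 pairs, 16.4% (95% exact binomial interval 13.4 to 19.7), the seventh highest of 20. Without the peaks of dense clusters the share was 13.1% and the fourth lowest. By part of the span, it was 23.9% of 67 pairs in the first 25% (interval 14.3 to 35.9), 14.1% in the second, 7.75% in the third (interval 3.78 to 13.8) and 20.7% in the last. Outside the cluster the last 25% had 12.4%.

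Peak width differed between the inner and outer parts in the opposite direction to most chromosomes. The inner median was 424 bp over 273 peaks (95% exact order-statistic interval 388 to 452), the lowest of 20. The outer median was 460 bp over 296 peaks (interval 420 to 486), the fifth highest. Without the cluster it was 436 bp over 271 peaks (interval 394 to 474). The outer parts of the other chromosomes together, without dense clusters, had 441 bp. The inner minus outer difference of -36 bp was the lowest of 20, and the others averaged 27.1 ± 27.9 bp (SD, n = 19 chromosomes). Its approximate 95% interval ran from -82.0 to 9.97 bp, so the ends differed in sign. The difference was also negative on chromosomes 15, 11 and 1, with -28.5, -15.5 and -2 bp. Part of it lay in the cluster: without the peaks of dense clusters it was -12 bp, and chromosomes 15 and 11 were then lower, with -42 and -15.5 bp.

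The widths differed in their upper range: the lower quartile was the modal width in both parts, and the upper quartile was 530.0 bp inside and 643 bp outside. Peaks of at least 600 bp were 15% of the inner part (41 of 273, 95% exact binomial interval 11.0 to 19.8) and 28.7% of the outer parts (85 of 296, interval 23.6 to 34.2). Without the cluster the outer share was 24.4% (interval 19.4 to 29.9). On the other chromosomes together it was 28.8% inside and 22.96% outside. At least 1 kb was the width of 7 inner peaks (2.56%) and 23 outer ones (7.77%), 10 of the latter in the cluster and 6 between 7 and 9 Mb. Leaving out the cluster, the outer share was 4.80%. On the other chromosomes the shares were 7.45% inside and 3.997% outside. Their inner share includes dense clusters, such as those of chromosomes 10 and 18, and was not computed without them. Chromosome 13 therefore had few peaks of at least 1 kb in its inner part.

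Of the 9 peaks of at least 2 kb, 2 lay in the inner part (median of the others 1), 2 in the first 25% and 5 in the last. Besides the 4 of the cluster and the widest peak, they were 3936 bp from 35880983 to 35884918, 2944 bp from 22746013 to 22748956, 2073 bp from 8014059 to 8016131 and 2068 bp from 28761083 to 28763150. Peaks below the modal width were 37 of 273 (13.6%) in the inner part and 49 of 296 (16.6%) in the outer parts, the highest outer share of 20. Of the 5 narrowest, those of 19, 41, 42 and 47 bp lay in the inner part between 15 and 22 Mb, and another of 41 bp lay at 40.7 Mb.

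**Figure D4:**
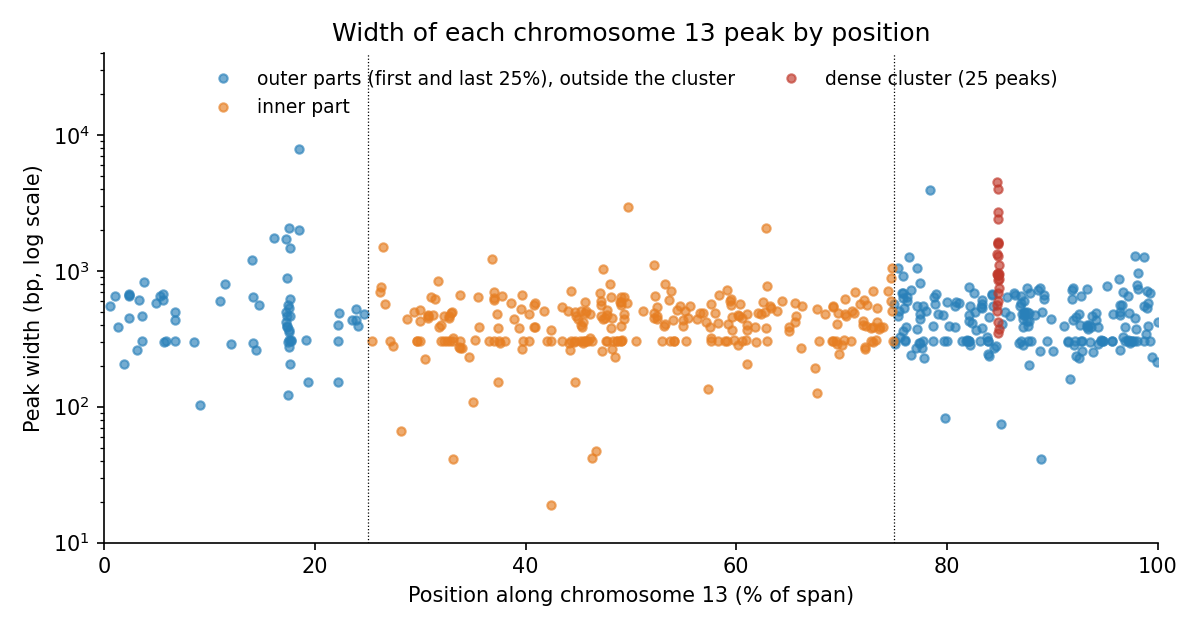
Width (bp, log scale) of each of the 569 chromosome 13 peaks against position (% of the span), split into the inner part, the outer parts and the dense cluster. Wide peaks gather near 16 to 18% of the span and in the cluster at 84.8%, and 7 inner peaks reach 1 kb.

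The modal width also had a reversed distribution. It was the width of 91 of 569 peaks on chromosome 13, 16.0% (95% exact binomial interval 13.1 to 19.3), close to the 16.1% of the other chromosomes together. Inside, it was 53 of 273, or 19.4% (interval 14.9 to 24.6), the highest inner share of 20. Outside, it was 38 of 296, or 12.8% (interval 9.25 to 17.2), the lowest outer share with the cluster included. Without the cluster, where no peak had this width, it was 38 of 271, or 14.02% (interval 10.1 to 18.7). Chromosome 1, with 13.2% and no dense cluster, was then lower. With the cluster included, the outer minus inner difference was -6.58 percentage points, against 5.21 ± 2.81 on the others (SD, n = 19 chromosomes). The only other negative value was -0.593 on chromosome 15. Within the inner part the excess lay in the second 25% of the span, where 35 of 143 peaks (24.5%) had the modal width, compared with 18 of 130 (13.8%) in the third. The first 25% had 5 of 68 (7.35%) and the last 33 of 228 (14.5%). Why a single width recurs was not tested.

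**Figure D5:**
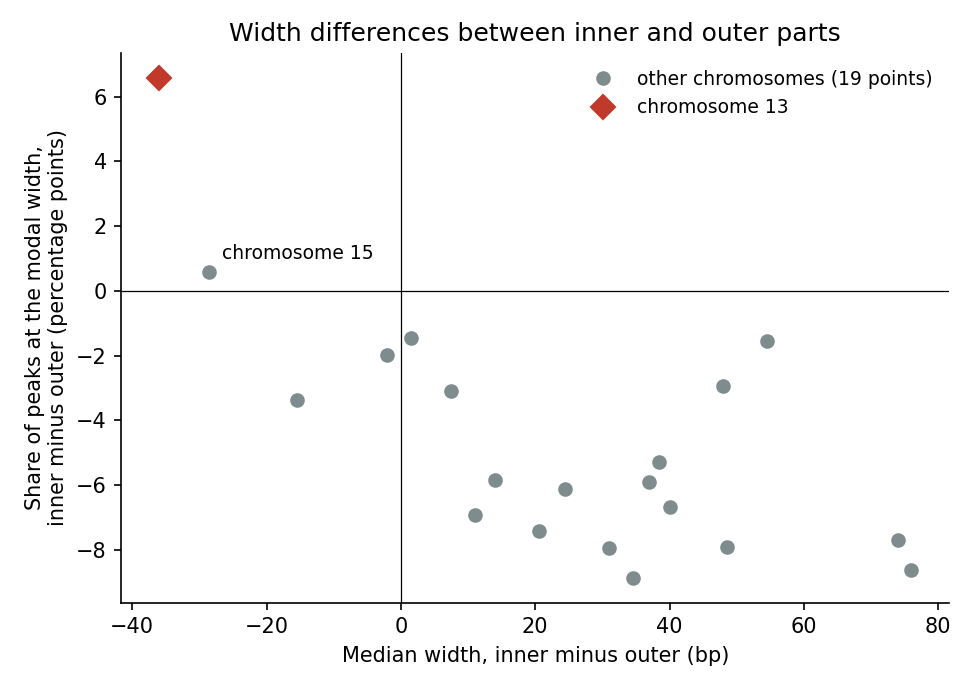
Each point is a chromosome, with the inner minus outer difference in median width (x axis, bp) and in the share of peaks at the modal width (y axis, percentage points). Chromosome 13 (diamond) lies at -36 bp and 6.58 points in the upper left, where chromosome 15 is the only other.

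By part of the span, the median width was 456.5 bp in the first 25%, 394 bp in the second, 438.5 bp in the third and 460 bp in the last. The second part had the second lowest median of that part among 20 chromosomes, and the first part the third highest. The last part had 428 bp without the cluster. In its sparsest 10 Mb, 4 of 54 peaks (7.41%) had the modal width, against 16.9% in the rest, and on 15 of 20 chromosomes the share was lower in the sparsest 10 Mb. Peaks of at least 1 kb were 8 of those 54 (14.8%), the second highest share of 20, against 4.27% in the rest. The median width there, 425.5 bp, was below the 440 bp of the rest.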

How the data were processed

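The authors deposited 1 peak list with 3 columns, the sequence name and the start and end of each peak in bp, starts from 0; it holds no count, score or p-value. Only paired-end runs were used, per the series' design text. Bowtie2 2.3.4.1, SAMtools, HOMER and bedtools are named in the submitters' processing notes, without role or order. The name of the list calls it an intersection; the way replicates were joined, the build, the settings of peak calling and any shift for the transposase cut were not given in the sources used here. Joining can move peak edges and drop regions seen in 1 replicate.

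Positions were converted to count from 1 and summarised in Python 3.11.15 (pandas 2.3.3, numpy 2.4.6, scipy 1.17.1), with plots drawn in matplotlib 3.10.9. A chromosome's span runs from position 1 to the end of its last peak, a lower bound of its length. Peaks were placed by midpoint; outer parts are 25% at each end. The sliding window of 10 Mb moved in steps of 100 kb. The modal width is 306 bp. Intervals are 95% exact binomial or Poisson intervals. Those of medians use order statistics. The interval of the inner minus outer median width is approximate and symmetric. It joins the widths of the inner and outer median intervals as the root of their summed squares. The outer to inner density ratio and the inner minus outer width were tested on simulated data. Those held many more peaks than the list, no clusters and widths drawn from peaks under 1 kb. Chains, merging and the sliding window were checked on a few made-up peaks. The other measures and the intervals were not simulated. Named peaks, stretches and chains followed a rule: peaks of at least 2 kb, the 5 widest and narrowest, the first and last, the 5 longest empty stretches, chains of at least 5 peaks, the 3 fullest and sparsest windows and the dense cluster; others were chosen after their values were seen. The chromosome, the rule and all measures were chosen with earlier results of these data known. Comparisons with genes, planned for an annotation that fits the list, were not run.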

Additional observations from a re-analysis of the deposited data

How the results depend on the processing

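Of 44 alternatives for 8 results, 31 kept their direction and stayed within the 95% interval of the value reported (for the cluster, within 1.5 times), 2 changed direction and 11 moved beyond it. The outer to inner density ratio, 1.08 (interval 0.917 to 1.28), stayed the lowest of 20 chromosomes under every choice of peaks and of outer extent, but its side of 1 was not fixed: it was 0.957 with outer parts of 35% and 0.993 without the peaks of dense clusters. With the sparsest 10 Mb as the inner part it was 2.67. The start to end ratio, 0.298, was the lowest of 20 in every alternative except the first and last 50%, where it was 0.589 and the fourth lowest. The inner minus outer median width was below 0 in all 10 alternatives, from -4 bp with outer parts of 35% to -63.5 bp among peaks over the second most common width. The difference in means was -137 bp. Its rank was not fixed. It stayed the lowest of 20 with outer parts of 20 and 30%. It was the fourth lowest with outer parts of 35%, the third lowest without the peaks of dense clusters and the second lowest once peaks within 1 kb were merged. Density was 10.6 per Mb among peaks of at least the modal width and 5.83 among those at or above the median width of the list, where fewer peaks are counted. The sparsest window held 2.8 peaks per Mb at 5 Mb, rank 10 of 20 from the highest, against 5.4 at 10 Mb. Neighbouring midpoints were within 2, 10 and 20 kb in 7.22, 24.6 and 36.3% of pairs, and within 5 kb in 13.1% without the peaks of dense clusters. The cluster had 12 peaks once those within 1 kb were merged, and 25 with gaps of up to 5 or 20 kb. The 25 were fixed in advance, since gaps inside reached at most 4191 bp and those beside it were 74.98 and 102.4 kb. Keeping only peaks of at least the modal width also had to leave 25, as none was narrower. These outcomes are counted among the 31. No paired analysis was possible because peaks of the 2 replicates come joined in a single list, so leaving out a replicate was not run either. Gene-based alternatives were not run. Depth is unknown, and its effect was not tested.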
